A study of Rattus norvegicus with 38 samples.

Results

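A set of 7 rat genes was picked from a table of 32883 Ensembl gene IDs because their levels in cortical neurons differed widely between stroke-prone spontaneously hypertensive rats (SHRSP) and Wistar rats. They are ENSRNOG00000005826 and ENSRNOG00000001224, higher in SHRSP neurons, and ENSRNOG00000017895, ENSRNOG00000001199, ENSRNOG00000004090, ENSRNOG00000007189 and ENSRNOG00000002911, higher in Wistar neurons. The neuron strain contrast chose them, so its values are given below as a description, without a test. The table pairs no ID with a gene name, and the reference tables used here, of the rat assembly GRCr8, hold none of the 32883 IDs. Names, functions, positions and sequences are therefore not given.

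SHRSP rats are an inbred strain that develops severe high blood pressure and is prone to stroke, and it is widely used to study hypertensive damage to brain vessels and tissue. Wistar rats have normal blood pressure and are commonly kept as an outbred stock, in which animals can carry different versions of a gene. The study cut cortical blood vessels and clusters of cortical neurons from the frontal brain by laser microdissection and sequenced the 3′ ends of their transcripts, a method that places reads near the end of a transcript so that counts do not grow with its length. The series title asks how the expression signature of hypertension depends on its stage.

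Each of 19 animals gave 1 vessel library and 1 neuron library, and the animal numbers below are those of the sample titles. The groups were 5 SHRSP animals at the late stage of 32 to 34 weeks of age, 5 SHRSP animals at the early stage of 24 to 25 weeks, 4 late Wistar animals and 5 early Wistar animals. No treatment is given in the labels, and the rats differ by strain and age alone as far as the labels say. Without gene names, the captured material was not checked against markers of vessels or neurons.

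Totals ranged from 1612966 to 4963429 counts in vessel libraries and from 1198386 to 4101901 counts in neuron libraries. Detected IDs, those with any count, numbered 4104 to 11974 per vessel library and 9501 to 14305 per neuron library. A single ID, ENSRNOG00000043866, was the most abundant. It made up 20.4% to 35.5% of the neuron counts in 11 animals, called high-share animals below, and 4.34% to 10.7% in the other 8, called low-share animals. The high-share animals were the 9 late animals and the early animals 349 and 383, so stage and this share coincided in 17 of 19 animals. Vessel libraries held 9875 to 11974 IDs in the high-share animals and 4104 to 8752 in the low-share animals. Levels below are CPM, counts relative to the total of their library after scaling by the trimmed mean of M-values (TMM).

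Of the genes higher in SHRSP neurons, ENSRNOG00000005826 had the higher level. Its level was 17.0, 23.8, 30.9, 25.2 and 27.6 CPM in late SHRSP neurons and 49.2, 26.7, 34.3, 32.2 and 22.8 CPM in early SHRSP neurons, against 3.93, 0, 0.876 and 1.26 CPM in late Wistar neurons and 4.43, 0.318, 0.808, 1.87 and 3.21 CPM in early Wistar neurons. Every SHRSP library lay above every Wistar library, with 51 counts or more in SHRSP libraries and 14 or fewer in Wistar libraries. The log2 fold of SHRSP over Wistar was 3.98 (SE 0.39). Within SHRSP neurons the level varied by 30.0% (coefficient of variation), against 11% from counting alone. In bulk material of this kind, fewer cells of a type and less RNA per cell cannot be told apart.

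ENSRNOG00000001224 was a low gene in both strains. It had 2.47, 1.40, 3.59, 0.673 and 2.69 CPM in late SHRSP neurons and 4.99, 4.88, 7.53, 6.77 and 4.89 CPM in early SHRSP neurons, against 0, 0.643, 0 and 1.26 CPM in late Wistar neurons and 0.316, 0, 0.404, 0.312 and 0.741 CPM in early Wistar neurons. Of the 10 SHRSP libraries, 9 lay above all Wistar libraries, and late SHRSP animal 382, with 2 counts, lay among them. The log2 fold was 2.91 (SE 0.55) and rested on 122 counts over all SHRSP neuron libraries, against 12 over all Wistar neuron libraries.

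Among the genes higher in Wistar neurons, ENSRNOG00000017895 had the widest difference. Its level was 0.925, 0, 0.276, 5.04 and 0.767 CPM in late SHRSP neurons and 0, 2.01, 0.301, 1.08 and 1.30 CPM in early SHRSP neurons, against 36.7, 44.7, 29.8 and 20.1 CPM in late Wistar neurons and 44.9, 14.3, 65.9, 36.6 and 53.6 CPM in early Wistar neurons. The strains did not overlap: the highest SHRSP library, of late animal 382, held 15 counts, and the lowest Wistar library, of early animal 343, held 45. The log2 fold was -4.89 (SE 0.44), the largest in size of the 7 and rank 3 by size among the 10833 IDs tested in neurons.

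ENSRNOG00000001199 was present in both strains. It had 3.39, 0.935, 2.76, 3.03 and 2.69 CPM in late SHRSP neurons and 3.56, 1.72, 4.52, 2.98 and 5.21 CPM in early SHRSP neurons, against 17.0, 21.9, 18.0 and 30.8 CPM in late Wistar neurons and 32.6, 3.81, 39.6, 14.7 and 25.9 CPM in early Wistar neurons. Early Wistar animal 343, at 3.81 CPM, lay within the SHRSP range, and the other 8 Wistar libraries lay above it. The log2 fold was -2.87 (SE 0.35).

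ENSRNOG00000002911 and ENSRNOG00000007189 were lower in level. ENSRNOG00000002911 had 0.617, 0, 1.38, 1.34 and 0 CPM in late SHRSP neurons and 0.713, 0, 3.31, 0 and 2.93 CPM in early SHRSP neurons, against 4.80, 11.3, 7.89 and 4.71 CPM in late Wistar neurons and 3.79, 14.3, 7.27, 3.75 and 4.69 CPM in early Wistar neurons. The strains did not overlap, although the highest SHRSP library (3.31 CPM) and the lowest Wistar library (3.75 CPM) held 11 and 12 counts, and the log2 fold was -2.73 (SE 0.60). ENSRNOG00000007189 ranged from 0.552 to 2.85 CPM with a median of 1.46 CPM in SHRSP neurons and from 2.5 to 9.53 CPM with a median of 6.06 CPM in Wistar neurons. It had the smallest difference of the 7, with a log2 fold of -1.81 (SE 0.42), and early Wistar animal 349 lay within the SHRSP range.

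ENSRNOG00000004090 split the Wistar animals. Its level was 1.54, 2.34, 2.21, 3.70 and 3.84 CPM in late SHRSP neurons and 4.28, 4.60, 6.32, 1.35 and 4.24 CPM in early SHRSP neurons. In Wistar neurons it was 1.75, 73.4, 133.6 and 52.2 CPM in late animals 350, 351, 353 and 354, and 100.2, 0, 113.6, 4.37 and 5.43 CPM in early animals 340, 343, 346, 349 and 368. Thus 5 of the 9 Wistar animals lay above every SHRSP library, at 52.2 CPM or more, and the other 4 lay at or below 5.43 CPM, within or under the range of SHRSP. The log2 fold of -3.99 (SE 0.77) therefore averages over Wistar animals of very different level. The coefficient of variation in Wistar neurons was 99.3%, against 8.21% from counting alone. The widest gap between neighbouring Wistar neuron libraries was 3.05 on the log2(CPM + 1) scale, rank 255 among 10833 IDs, where the median ID had a widest gap of 0.66.

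**Figure D1:**
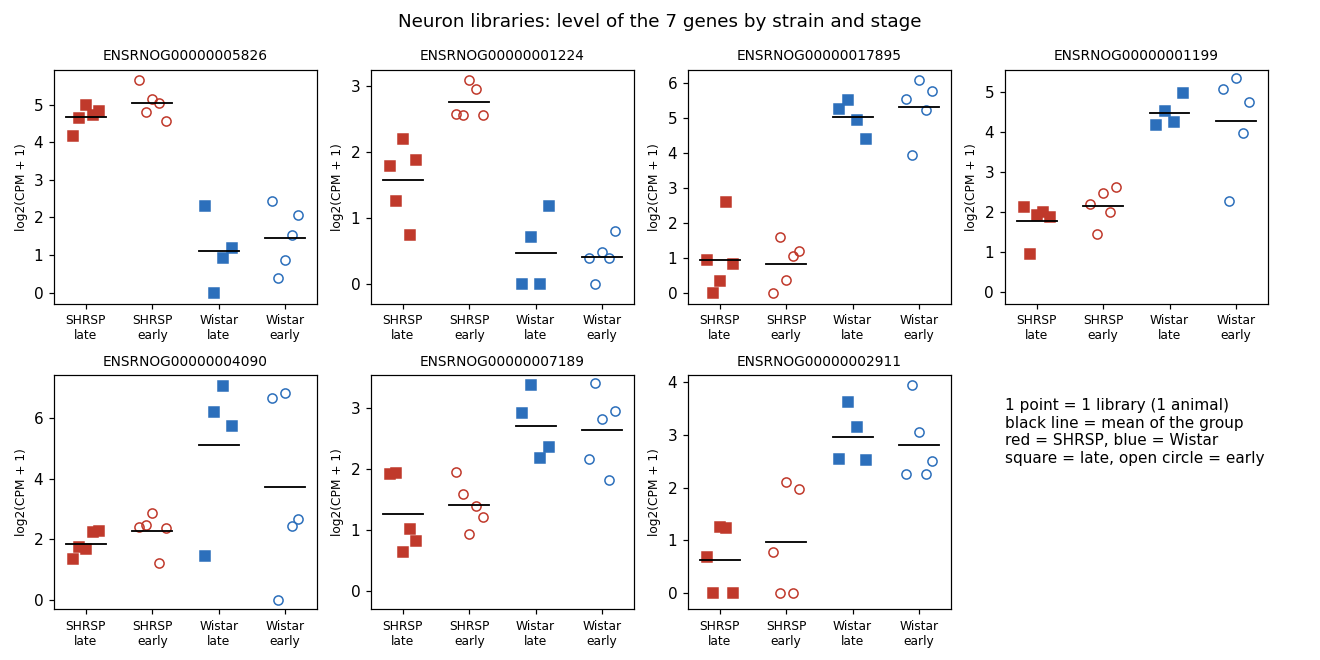
Level of each of the 7 genes in neuron libraries, as log2(CPM + 1) on the vertical axis, by strain and stage on the horizontal axis; points are libraries of 1 animal each and black lines are group means. SHRSP and Wistar points do not overlap for ENSRNOG00000005826, ENSRNOG00000017895 and ENSRNOG00000002911, and the Wistar points of ENSRNOG00000004090 form an upper group of 5 and a lower group of 4.

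The strains' neuron libraries did not overlap for 3 of the 7 genes, against 0.120% of the 10833 IDs tested, and nothing is read from this count because the same contrast chose the genes. The 7 were not simply those with the largest folds. By size of log2 fold they held ranks 3, 5, 6, 10, 11, 14 and 34, and 73 of the 10833 IDs (0.674%) differed between the strains in neurons at an adjusted p under 0.05 in edgeR's quasi-likelihood test. The same test called 0.0369% of all IDs between the strains in late neurons and 0.222% in early neurons.

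The vessel libraries of the same animals were not used to choose the genes, and they ask whether the strain difference was also seen outside the neuron material. All 7 genes had a higher mean vessel level in the strain that was higher in neurons, but many vessel libraries held no counts of them. The share of all IDs that kept their side between the materials was not computed, so nothing is read from this count. None of the 7 passed edgeR's quasi-likelihood test over the mean of both stages (Benjamini-Hochberg adjusted p over 11011 IDs of 0.0680 to 0.381), where 9 IDs (0.0817%) did. At an unadjusted p under 0.05 the same test held 7 of the 7 and 8.68% of all IDs. In an exact two-sided permutation test of the strain labels on log2(CPM + 1) over all 92378 splits of the 19 animals, 6 of the 7 had an unadjusted p under 0.05, against 5.25% of all IDs, and after adjustment over 11011 IDs 0 of the 7 and 0 IDs in all passed (adjusted p of 0.652 to 0.989 for the 7). Several of the 7 passed the filter on low counts mainly through the strain in which they were higher, so these counts describe the 7 and support nothing further.

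ENSRNOG00000005826 had its highest levels of the whole study in SHRSP vessels. It stood at 79.5, 94.2, 45.7, 86.9 and 18.9 CPM in late SHRSP vessels and 272.9, 0, 55.0, 36.7 and 0 CPM in early SHRSP vessels, against 0, 0, 1.31 and 10.8 CPM in late Wistar vessels and 0, 0, 0, 4.12 and 0 CPM in early Wistar vessels. The 8 SHRSP libraries with counts lay above all Wistar libraries, and the 2 without counts, of early animals 377 and 386, had 4104 and 6549 IDs detected. Early SHRSP animals 374 and 380, with 6088 and 5745 IDs detected, held 591 and 162 counts of this gene. Whether library quality had a part in the libraries without counts was not tested. The log2 fold was 5.41 (SE 1.41, edgeR adjusted p = 0.0783), and the exact permutation test gave p = 0.00217 (adjusted 0.742). That fold became 7.63 without Wistar animal 349, 6.84 without Wistar animal 354 and 4.58 without SHRSP animal 374. With the high-share animals alone, where the early animals are only 349 and 383, it was 3.77.

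The second SHRSP-high gene, ENSRNOG00000001224, was seen in few vessel libraries. It had counts in 3 of 5 late SHRSP vessel libraries, of animals 379, 382 and 384 at 21.5, 5.58 and 9.28 CPM, and in 1 of 5 early SHRSP vessel libraries, of animal 383 at 12.1 CPM, against 1 of 9 Wistar vessel libraries, of early animal 349 at 2.06 CPM. Late Wistar vessels held no counts, so the late SHRSP mean of 7.27 CPM was at least 35.4-fold higher when set against 3 counts over the whole late Wistar group, or at least 18.1-fold higher without animal 379. The permutation test over both stages gave p = 0.0867 (exact), and edgeR an adjusted p of 0.344. Limits of this kind cover counting error only.

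ENSRNOG00000017895 was nearly absent from SHRSP vessels. It had 0.173, 0, 2.82, 0 and 1.86 CPM in late SHRSP vessels and no counts in any early SHRSP vessel library, against 36.9, 34.6, 1.31 and 40.0 CPM in late Wistar vessels and 59.6, 2.56, 28.9, 27.8 and 0 CPM in early Wistar vessels. Of the 9 Wistar libraries, 6 lay above all SHRSP libraries, and animals 343, 353 and 368 lay among them. The early SHRSP level was at least 105.5-fold lower than the early Wistar mean of 23.8 CPM when 3 counts over the whole early SHRSP group are taken, or at least 65.8-fold lower without Wistar animal 340. This limit covers counting error only. All early SHRSP animals except 383 were low-share, and the vessel libraries of 377 and 386 held 2 and 1 counts of the 7 genes together. In early vessels the edgeR adjusted p was 0.106, and the exact permutation p was 0.0476 (adjusted 0.949). The log2 fold over both stages was -7.07 (SE 1.79, edgeR adjusted p = 0.0680), a fitted value and no bound, and the exact permutation test gave p = 0.000649 (adjusted 0.652).

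ENSRNOG00000001199 had the smallest permutation p of the 7 in vessels. Its level was 0.173, 6.09, 0.201, 0 and 0 CPM in late SHRSP vessels and 0, 0, 0, 0.281 and 0 CPM in early SHRSP vessels, against 24.4, 23.3, 14.0 and 24.5 CPM in late Wistar vessels and 16.2, 44.1, 45.8, 2.06 and 0 CPM in early Wistar vessels. Of the 9 Wistar libraries, 7 lay above all SHRSP libraries, and animal 343, low in neurons at 3.81 CPM, was among the highest in vessels at 44.1 CPM. The log2 fold was -5.89 (SE 1.74, edgeR adjusted p = 0.153) and the exact permutation p was 0.000336 (adjusted 0.652). Late SHRSP animal 379 held 17 of the 20 SHRSP counts and early SHRSP animal 383 held 1, and the log2 fold was -7.53 without 379 and -6.55 without 383. In late vessels alone it was -7.31 without 379, against -4.04 with it.

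The remaining Wistar-high genes had lower or more uneven vessel levels. ENSRNOG00000002911 reached at most 1.43 CPM in SHRSP vessels, with 0 in 6 of 10 libraries, and 26.4 CPM in Wistar vessels, with 0 in 2 of 9 libraries. Its log2 fold was -5.20 (SE 1.85, edgeR adjusted p = 0.314) and its exact permutation p 0.00101 (adjusted 0.652), with a log2 fold of -6.06 without late SHRSP animal 379. ENSRNOG00000007189 reached at most 1.70 CPM in SHRSP vessels, with 0 in 8 of 10 libraries, and 16.2 CPM in Wistar vessels, with 0 in 3 of 9 libraries. For both genes most SHRSP vessel libraries were empty while most Wistar ones were not. For ENSRNOG00000007189, however, Wistar animals 343 and 368 held only 1 count each, and the Wistar median was 0.267 CPM. The log2 fold of ENSRNOG00000007189 was -4.50 (SE 1.79, edgeR adjusted p = 0.381), and its exact permutation p was 0.0299 (adjusted 0.928).

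**Figure D2:**
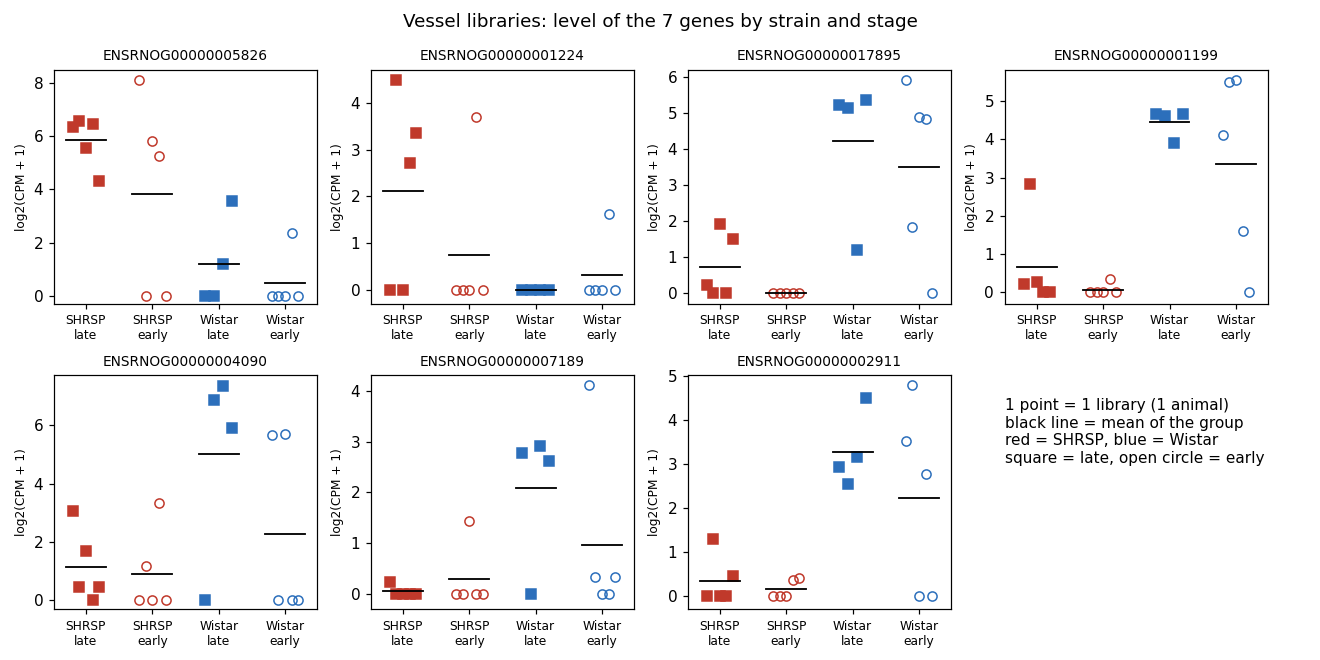
Level of each of the 7 genes in vessel libraries, as log2(CPM + 1) on the vertical axis, by strain and stage on the horizontal axis; points are libraries of 1 animal each and black lines are group means. Libraries at 0 occur in at least 1 group of every gene, and for ENSRNOG00000001224 in 6 of 10 SHRSP libraries and 8 of 9 Wistar libraries.

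ENSRNOG00000004090 repeated its split of the Wistar animals in their vessels. It had 7.27, 0.358, 2.21, 0 and 0.371 CPM in late SHRSP vessels and 0, 1.24, 0, 8.98 and 0 CPM in early SHRSP vessels. Wistar animals 351, 353 and 354 (late) and 340 and 346 (early) had 114.6, 162.9, 59.1, 50.3 and 50.6 CPM, and the vessel libraries of Wistar animals 343, 349, 350 and 368 held 0 counts. The 5 Wistar animals with counts in vessels were the 5 with 52.2 CPM or more in neurons. This is a description of the animals, with no test, since the labels do not divide them. The share of all IDs that divide the Wistar animals alike in both materials was not computed. The vessel library of animal 368 held 1 count of the 7 genes together, so its 0 says little. Those of animals 343, 349 and 350 held 286, 122 and 326 counts of the 7, all from the other genes. Whether ENSRNOG00000004090 could have been detected in them was not tested. The neuron library of animal 343, at 0 CPM for this gene, had 9501 IDs detected, the fewest of the neuron libraries. Over both stages the log2 fold of SHRSP over Wistar vessels was -4.29 (SE 1.40, edgeR adjusted p = 0.252), with an exact permutation p of 0.0446 (adjusted 0.946). With the high-share animals alone, where the early stage is 1 animal of each strain, the log2 fold turned to 1.42. It was -5.57 without SHRSP animal 383 and -5.00 without SHRSP animal 378.

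**Figure D3:**
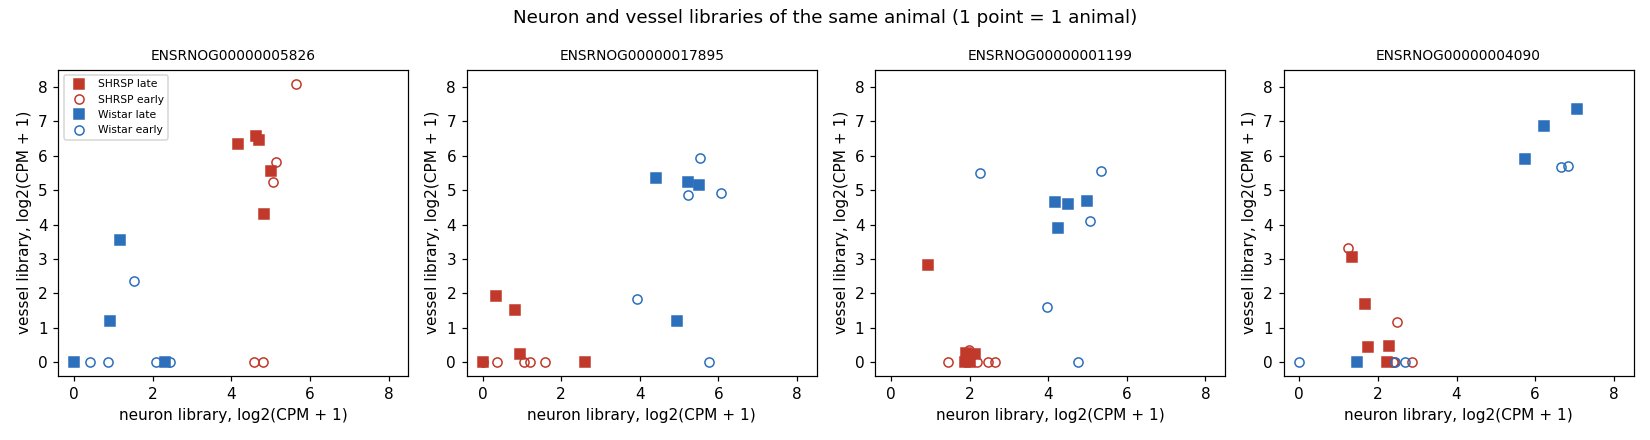
Neuron level (horizontal axis) against vessel level (vertical axis) of the same animal, both as log2(CPM + 1), for 4 genes; red is SHRSP and blue is Wistar, squares are late and open circles early, and each point is 1 animal. For ENSRNOG00000004090 the 5 Wistar animals at or above 52.2 CPM in neurons are also the Wistar animals with vessel counts, and the other 4 are at 0 in vessels. The share of all IDs with such a match was not computed.

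The vessel difference was also examined at each stage. Here too, several of the 7 passed the filter on low counts mainly through the strain in which they were higher. The counts of the 7 below are therefore a description and support nothing further. In late vessels edgeR called 0 of the 7 (0.00% of all IDs) and had an unadjusted p under 0.05 for 5 of the 7, against 0.926% of all IDs. There the exact permutation test over 126 splits had an unadjusted p under 0.05 for 5 of the 7, against 4.67% of all IDs. ENSRNOG00000005826 and ENSRNOG00000002911 reached p = 0.00794 (exact), the smallest that 126 splits can give, and none of these p-values passed after adjustment over all IDs. In early vessels edgeR called 0 of the 7 (0.254% of all IDs) and had an unadjusted p under 0.05 for 4 of the 7, against 15.3% of all IDs. There the exact permutation test over 252 splits had an unadjusted p under 0.05 for 2 of the 7, against 4.94% of all IDs: ENSRNOG00000017895 and ENSRNOG00000001199, both at p = 0.0476. Whether the vessel difference changed with stage was also tested: edgeR called 0 of the 7 (0.00908% of all IDs), and 0 of the 7 had an unadjusted p under 0.05, against 7.16% of all IDs.

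Summed over the genes of each direction, the larger sum was on the side of the animal's strain in 17 of 19 vessel libraries. The exceptions were the early SHRSP animals 377 and 386, whose vessel libraries held at most 2 counts of the 7 genes together. Wistar animal 368, counted among the 17, held only 1 count, so these 3 libraries say little about either side. The SHRSP side was mostly ENSRNOG00000005826, with 2273 counts over the SHRSP vessel libraries, against 153 of ENSRNOG00000001224. No share for other sets of genes was computed, so the 17 of 19 is a description. Between 1 and 6 of the 7 genes were detected per vessel library, 2 to 6 in high-share and 1 to 5 in low-share animals, against 5 to 7 per neuron library. The part of library quality in the vessel values was not tested: the low-share vessel libraries with few detected IDs are all early, and with these animals alone none of the 7 passed the filter on low counts.

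**Figure D4:**
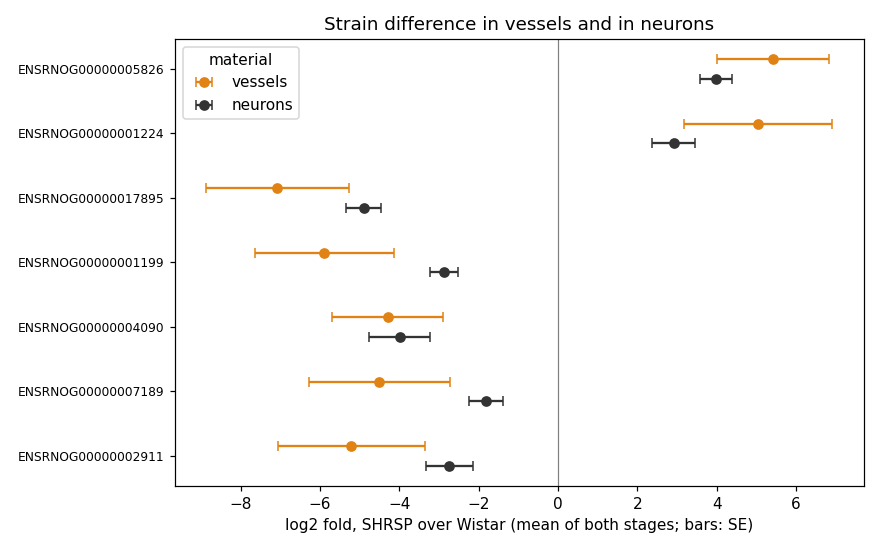
Fitted log2 fold of SHRSP over Wistar, as the mean of both stages (horizontal axis), for the 7 genes in vessels (orange) and neurons (black); bars are the standard error of the fit. The vessel folds have the sign of the neuron folds for all 7 genes with standard errors of 1.40 to 1.87, and the neuron folds are those by which the genes were chosen. The share of all IDs with the same sign in both materials was not computed.

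Across stages, the neuron levels of the 7 genes did not pass the test of stage in either strain. Over all IDs, edgeR called 959 in SHRSP and 1009 in Wistar neurons. With high or low share added as a term to the fit, 0 IDs were called in either strain. The shares of all IDs called below therefore depend on this setting. The neuron libraries that chose the genes also enter the neuron stage tests, so their counts and p-values describe the 7 and support nothing further. In SHRSP neurons 0 of the 7 were called between late and early (8.85% of all IDs), with log2 folds of late over early of -1.40 to 0.44, and 1 of the 7 had an unadjusted p under 0.05, against 26.4% of all IDs. That gene was ENSRNOG00000001224, which averaged 2.16 ± 1.14 CPM in late SHRSP neurons and 5.81 ± 1.25 CPM in early SHRSP neurons (SD, n = 5 each). Its late and early libraries did not overlap, as for 10.2% of all IDs, and it was the only 1 of the 7 for which this held in SHRSP neurons. The log2 fold was -1.40 (SE 0.63, edgeR adjusted p = 0.156), and it passed when only these groups entered the fit (edgeR adjusted p = 0.0331). In that fit only 3 of the 7 passed the filter on low counts. This gene had 7 to 25 counts per early library and 2 to 13 per late library, so the pass is a description. With the high-share animals alone, where early SHRSP is animal 383 only, the log2 fold was -1.61, and stage and library set cannot be told apart further.

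In Wistar neurons edgeR called 0 of the 7 between late and early (9.31% of all IDs), with log2 folds of -0.60 to 0.55 and adjusted p of 0.588 to 0.960, and 0 of the 7 had an unadjusted p under 0.05, against 27.1% of all IDs. Late and early Wistar neuron libraries overlapped for each of the 7, and 9.87% of all IDs did not overlap. ENSRNOG00000005826, the most SHRSP-biased of the genes, averaged 24.9 ± 5.20 CPM in late and 33.0 ± 10.1 CPM in early SHRSP neurons (SD, n = 5 each; log2 fold -0.40, SE 0.42, edgeR adjusted p = 0.590). ENSRNOG00000017895, the most Wistar-biased, averaged 32.8 ± 10.4 CPM in late (SD, n = 4) and 43.0 ± 19.4 CPM in early Wistar neurons (SD, n = 5; log2 fold -0.39, SE 0.49, edgeR adjusted p = 0.649). A change of the neuron difference with stage was called for 0 of the 7 by edgeR (0.00% of all IDs), and 0 of the 7 had an unadjusted p under 0.05, against 2.34% of all IDs. The genes were chosen by the neuron difference itself, so this does not show that the difference is the same at both stages.

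In vessels the stages could be compared only coarsely. Late against early called 0 of the 7 by edgeR in SHRSP (0.00908% of all IDs) and 0 of the 7 in Wistar (0.00908% of all IDs). At an unadjusted p under 0.05 there were 1 of the 7 in SHRSP, against 13.9% of all IDs, and 0 of the 7 in Wistar, against 3.64%. The SHRSP gene was ENSRNOG00000017895, with counts in 3 of 5 late vessel libraries and in 0 of 5 early ones. Late and early vessel libraries overlapped for each of the 7 in both strains, and 4.46% of all IDs in SHRSP and 3.32% in Wistar did not overlap. Standard errors of these log2 folds were 1.54 to 2.37, larger than many of the folds themselves.

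Between the materials, 4 of the 7 genes were lower in vessels than in neurons of the same animals by a paired two-sided permutation test over the 19 animals with 100000 random sign changes, where 57.4% of all 12117 IDs had an unadjusted p under 0.05 and 51.7% were lower in vessels at that threshold. The mean paired difference of vessels minus neurons on the log2(CPM + 1) scale was -1.19 for ENSRNOG00000007189 (permutation p = 0.00246, adjusted 0.00916), lower in 15 of 19 animals. It was -1.10 for ENSRNOG00000001199 (permutation p = 0.0172, adjusted 0.0383), lower in 14 of 19. ENSRNOG00000004090, at -0.97 (permutation p = 0.0128, adjusted 0.0308), and ENSRNOG00000017895, at -0.93 (permutation p = 0.0229, adjusted 0.0476), were lower in 13 and 12 of 19 animals. The median of all IDs was -0.95, so these genes lay near the general difference between the materials. The neuron values that chose the genes also enter these differences, so the p-values describe the 7 and support nothing further.

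The paired differences are also given for each strain, as a description. ENSRNOG00000001199 was lower in vessels in 9 of 10 SHRSP animals (mean paired difference -1.61 ± 1.29 SD), where it was near 0 in vessels, and in 5 of 9 Wistar animals (-0.53 ± 2.19 SD). Its Wistar means were 21.6 CPM in vessels and 22.7 CPM in neurons. ENSRNOG00000004090 was lower in 8 of 10 SHRSP animals (-1.07 ± 1.75 SD) and in 5 of 9 Wistar animals (-0.86 ± 1.22 SD), and late Wistar animals averaged 84.2 CPM in vessels and 65.2 CPM in neurons. ENSRNOG00000017895 was lower in 6 of 10 SHRSP animals (-0.54 ± 1.19 SD) and in 6 of 9 Wistar animals (-1.36 ± 2.18 SD). ENSRNOG00000007189 was close in both strains, at -1.18 ± 0.73 (SD) in SHRSP and -1.21 ± 1.95 (SD) in Wistar animals. Whether these differences between the materials depend on strain was not tested.

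The edgeR fit with the animal as a block also called 4 of the 7, all lower in vessels (50.5% of all IDs called, 47.5% lower), with ENSRNOG00000001224 in place of ENSRNOG00000017895, and its calls are not read further because it made calls on simulated IDs with no difference.

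The other 3 genes did not pass the paired permutation test. ENSRNOG00000005826 had a mean paired difference of -0.26 (permutation p = 0.603, adjusted 0.664), higher in vessels in 10 animals and lower in 8. Its mean was 65.0 ± 31.8 CPM in late SHRSP vessels and 24.9 ± 5.20 CPM in late SHRSP neurons (SD, n = 5 each), and 72.9 ± 114.3 CPM in early SHRSP vessels, where animal 374 alone had 272.9 CPM, and 33.0 ± 10.1 CPM in early SHRSP neurons. ENSRNOG00000001224 had a mean paired difference of -0.53 (permutation p = 0.203, adjusted 0.268), lower in 11 animals and higher in 5. ENSRNOG00000002911 had -0.39 (permutation p = 0.238, adjusted 0.306), lower in 9 animals and higher in 9.

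Other IDs followed the same pattern over the 19 neuron libraries, measured as the Pearson correlation of log2(CPM + 1) with the mean profile of the genes higher in 1 strain. These correlations are a description: the strain difference that chose the genes is part of the profile, and all points share the libraries' depth and scaling. The most alike to the SHRSP-high profile were ENSRNOG00000020626 (r = 0.88), with a median of 39.6 CPM in SHRSP and 21.9 CPM in Wistar neurons, and ENSRNOG00000032740 (r = 0.85), with 19.9 CPM in SHRSP and 5.67 CPM in Wistar neurons. The most alike to the Wistar-high profile were ENSRNOG00000029262 (r = 0.89), with a median of 0 CPM in SHRSP and 3.75 CPM in Wistar neurons, and ENSRNOG00000018159 (r = 0.83), with 6.43 CPM in SHRSP and 14.5 CPM in Wistar neurons.

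In vessels these 4 IDs did not all keep that order. ENSRNOG00000032740 had a median of 13 CPM in SHRSP and 1.03 CPM in Wistar vessels, the same side as in neurons. ENSRNOG00000020626 had 39.0 CPM in SHRSP and 50.7 CPM in Wistar vessels, and ENSRNOG00000018159 had 18.3 CPM in SHRSP and 8.73 CPM in Wistar vessels, the other side in both cases, with ranges that overlapped widely. ENSRNOG00000029262 was below the filter on low counts in vessels. Among the 7 genes themselves, the correlation of each with the mean profile of the others of its direction ranged from 0.58 for ENSRNOG00000004090 to 0.90 for ENSRNOG00000017895.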

How the data were processed

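The data were the raw read counts that the authors deposited, a table of Ensembl IDs by libraries, with 0 columns without a sample. Tools named by the submitters' processing notes, with no role stated, are HTSeq 0.6.1, STAR 2.5.3a, DESeq2 1.18.1 and FastQC 0.11.5. The sources used here do not state the genome build, annotation or strand setting, so overlapping, antisense and near-identical genes cannot be separated. The 7 genes, the lists and the tests were chosen with earlier results of these data known. Genes named besides the 7 are the 2 IDs most alike to each profile and the most abundant ID. Lists of named genes could not be applied to IDs without names.

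Within each material, edgeR 4.0.16 (R 4.3.3) was fitted to the 19 libraries with the 4 strain and stage groups as terms, after its filter on low counts, with TMM scaling and the robust quasi-likelihood test. All 7 genes passed the filter in both materials. P-values were adjusted by Benjamini-Hochberg over all IDs tested, and a call is an adjusted p under 0.05. Standard errors are the log2 fold over the square root of F. Exact permutation tests of the strain labels on log2(CPM + 1) were run in vessels as a listed alternative, and their adjustment over all IDs was added after seeing the data. Alternatives used DESeq2 1.42.0 and limma 3.58.1. The fits were tested on simulated data.

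Vessels and neurons were compared over all 38 libraries with the animal number of the titles as a replicate block. In simulated data that fit made calls on IDs given no difference, so the paired permutation test, added after seeing the data, is reported instead. Over 3172 IDs averaging 5 or more in log2(CPM + 1), the paired libraries' deviations from their group means correlated with a median of 0.0456, over 0.1 in 5 of 19 pairs, against a median of 0.00269 for other pairs. Among 72 pairs of libraries within groups, the smallest chi-square per degree of freedom was 4.88, so none was counted as a repeat. P-values measure the spread between separately numbered animals, with that of cutting and library making. A limit from 0 counts uses 3 counts over the group.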

Additional observations from a re-analysis of the deposited data

Results flagged for a closer look

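Of 54 sets of 4 or 5 libraries (7 genes in 4 groups of each material, leaving out sets with all values equal), 16 held 1 library far from the others by Dixon's criterion, where chance gives about 1 in 20. Of these, 14 were vessel sets and 2 neuron sets. Most vessel sets hold several libraries at 0, so that a single library with counts stands apart.

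In SHRSP vessels, early animal 383 stood out for ENSRNOG00000001224 (12.1 CPM, next 0), ENSRNOG00000004090 (8.98 CPM, next 1.24) and ENSRNOG00000001199 (0.281 CPM, next 0). Animal 383 is the only high-share animal among the early SHRSP animals. Early animal 374 stood out for ENSRNOG00000005826 (272.9 CPM, next 55.0) and early animal 380 for ENSRNOG00000007189 (1.70 CPM, next 0). Late animal 379 stood out for ENSRNOG00000001199 (6.09 CPM, next 0.201) and ENSRNOG00000002911 (1.43 CPM, next 0.371), and late animal 378 for ENSRNOG00000007189 (0.173 CPM, next 0).

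In Wistar vessels, early animal 349 stood out for the SHRSP-high genes ENSRNOG00000005826 (4.12 CPM, next 0) and ENSRNOG00000001224 (2.06 CPM, next 0). It is the only high-share animal among the early Wistar animals. Early animal 340 stood out for ENSRNOG00000007189 (16.2 CPM, next 0.267), and late animal 354 for ENSRNOG00000005826 (10.8 CPM, next 1.31). Late animal 353 was low for ENSRNOG00000017895 (1.31 CPM, next 34.6) and ENSRNOG00000001199 (14.0 CPM, next 23.3).

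In SHRSP neurons, late animal 382 was high for the Wistar-high gene ENSRNOG00000017895 (5.04 CPM, next 0.925), and late animal 379 was low for ENSRNOG00000001199 (0.935 CPM, next 2.69). The part of library quality in these values was not tested.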

How the results depend on the processing

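The strain difference in vessels called 0 of the 7 genes with edgeR, but 4 with DESeq2 (ENSRNOG00000005826, ENSRNOG00000017895, ENSRNOG00000001199 and ENSRNOG00000002911; 182 IDs in all, against 9) and 3 with limma voom (the same without ENSRNOG00000002911; 10 IDs in all), 6 by unadjusted permutation p and 5 with a pseudocount of 0.5, when ENSRNOG00000004090 missed the threshold (p = 0.0647, exact). Leaving out 1 animal gave 0 to 2: ENSRNOG00000017895 without 343, 349 or 368, and ENSRNOG00000005826 without 349, 377, 380 or 386. In late vessels the count was 0 with edgeR, and 5 by permutation with either pseudocount. In early vessels it was 0 with edgeR, 3 with DESeq2 (550 IDs in all, against 28), 2 by permutation with either pseudocount, and 0 to 3 with 1 animal left out (1 without 349, 3 without 383, with 1137 IDs in all). With the high-share animals alone, where the early stage is 1 animal of each strain, ENSRNOG00000004090 reversed in vessels (log2 fold 1.42 over both stages and 8.09 early). With the low-share animals alone no value could be had. Late against early in SHRSP neurons called 1 instead of 0 with only these groups in the fit (2033 IDs, against 959), ENSRNOG00000001224. Of the 7, 3 passed the filter on low counts in that fit. For the other stage folds and changes with stage, 93 of 1019 alternative log2 folds changed sign, and 12 of 152 in SHRSP neurons. There ENSRNOG00000004090 went from -0.60 to 2.01 with high or low share as a term. ENSRNOG00000002911 went from -0.94 to 4.18 with the high-share animals alone, where early SHRSP is animal 383 only, with 0 counts of this gene.

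Vessels against neurons called 4 of the 7 with edgeR and the replicate block (6124 IDs), 1 with no replicate block (3075 IDs), 2 with DESeq2-type size factors (5202 IDs), 0 in high-share animals (1886 IDs), 1 in low-share animals (3139 IDs), 2 with 1 vessel effect for all groups (4157 IDs), and 2 to 5 with 1 animal left out (2 without 350, 368, 380 or 386). With no replicate block the log2 fold of ENSRNOG00000005826 reversed to 0.53. In high-share animals it reversed to 0.67, that of ENSRNOG00000001224 to 0.12 and that of ENSRNOG00000002911 to 0.60. The cause of these changes was not tested, and the low-share, common-effect and paired permutation settings were added after seeing the data. No paired analysis of the strains was possible because they share no animal.

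Depth limits the low genes: several groups held under 20 counts of a gene, and a level of 0 in a vessel library with few detected IDs does not show that the gene was absent.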
